A study of Homo sapiens with 9 samples.

Results

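The microfibril and elastic fibre genes described here are MFAP2, MFAP4, MFAP5, FBN1, FBN2, ELN, EFEMP1, FBLN1, FBLN5 and LTBP2. These 10 genes are read by 24 of the 54675 probe sets on the arrays, all those that carry 1 of these symbols and no other. The set was chosen by MFAP5, whose log2 differences from the control hairpin were among the largest rises shared by both BAP1 hairpins in an earlier reading of the same arrays. Differences from the control hairpin are therefore given as a description, with standard errors and no p-values. Where such a difference is said to meet the calling threshold, or to miss it when an array is left out, that too is a description. Only the difference between the BAP1 hairpins, which was not itself used in that choice, is given with a test. It comes from the same BAP1 hairpin arrays, and the 10 genes were chosen with earlier results of these arrays known. For MFAP5 it is therefore not independent of the choice, and for the other genes it may not be.

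The arrays measured total RNA of U2OS cells, an established human osteosarcoma line, in 3 groups of 3. Cells received a plasmid for a non-targeting hairpin (shControl) or for either of 2 hairpins against the deubiquitinase gene BAP1 (shBAP1 #1 and shBAP1 #2) by lipid transfection. All groups alike were then selected with puromycin and held at the G1/S border by a double thymidine block, so the control cells carry the plasmid, the selection and the arrest too. The samples come from 1 line and plasmid-transfected cultures, and nothing in the labels ties a replicate to a culture of its own, so any p-value reflects spread among these arrays that may be technical only. The level of the BAP1 transcript was not analysed here.

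Microfibrils are thin extracellular filaments built from fibrillins (FBN1, FBN2) and decorated by the microfibril-associated glycoproteins MFAP2 and MFAP5. In elastic tissues they act as the scaffold on which tropoelastin, the product of ELN, is laid down with the help of fibulins and cross-linked by lysyl oxidases. Microfibrils also hold latent TGF-beta complexes through latent TGF-beta binding proteins (LTBP), and cells of the osteoblast lineage make them in bone matrix.

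Values are log2 expression after robust multi-array averaging (RMA), so 1 unit is a factor of 2. A gene was read by its brightest probe set unless stated, and met the threshold where limma's two-sided Benjamini-Hochberg adjusted p, over 54613 probe sets, was below 0.05. Arrays of 1 group correlated across probe sets at 0.995 to 0.997, and shBAP1 #2 replicate 1 resembled the controls more (mean r = 0.989) than did its replicates 2 and 3 (0.981). The 3' minus 5' difference of the actin control probe sets was 0.47 to 0.51 in shControl and 0.39 to 0.46 in the shBAP1 arrays. That of the GAPDH control probe sets overlapped, at -0.06 to -0.02 in shControl and -0.05 to -0.03 in the shBAP1 arrays. Of 8 mesenchymal and osteoblast markers, 5 exceeded the median probe set (mean 5.43), including VIM, SPARC, COL1A1 and RUNX2, while COL1A2, TWIST1 and ALPL lay below. The 8 summed to 65.9 to 66.2 in shControl, 69.1 to 70.1 with shBAP1 #1 and 67.5 to 68.4 with shBAP1 #2. With shBAP1 #1 and shBAP1 #2 in turn, COL1A1 differed from shControl by 0.99 and -0.10, RUNX2 by 1.20 and 0.03. SPARC differed by 0.35 and 0.01, ALPL by 0.24 and 1.18, and CDH2 by 0.49 and 0.59. VIM differed by 0.07 and -0.11, COL1A2 by 0.19 and 0.06, and TWIST1 by 0.05 and 0.14. Epithelial markers summed to 41.7 to 42.5 in shControl, 40.1 to 40.6 with shBAP1 #1 and 39.0 to 39.7 with shBAP1 #2. Of these 6 markers KRT8, KRT18 and EPCAM exceeded it. Of 4 endothelial and 4 blood markers, 1 each did (PECAM1 and HBB). The endothelial sum was 21.8 to 21.9 in shControl and 20.7 to 21.1 in the shBAP1 arrays, and the blood sum overlapped in all groups. All 4 smooth muscle markers exceeded the median, with sums of 28.6 to 28.8, 28.3 to 28.6 and 26.9 to 27.2 in the order above; ACTA2 differed from shControl by 2.08 and 1.07 and CNN1 by -2.03 and -2.66. The RMA scale has no true 0. The part of these shifts in the results below was not tested.

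With shBAP1 #1, 4 of the 10 genes were higher than in shControl (MFAP5, FBN2, MFAP2 and FBN1) and 1 was lower (FBLN1). Over all 19775 genes 23.4% met the threshold in that comparison, 11.9% higher and 11.5% lower. With shBAP1 #2, 4 were higher (MFAP5, LTBP2, MFAP2 and FBN2) and FBLN1 was again lower, against 31.2% of all genes, 15.8% higher and 15.5% lower. MFAP5, FBN2 and MFAP2 were higher and FBLN1 lower with both hairpins, which share the control arrays, where 5.56% of all genes were higher and 4.85% lower with both. The median log2 difference of the 10 genes was 0.19 with shBAP1 #1 and 0.16 with shBAP1 #2, against 0.01 and 0.02 over all genes. Since these comparisons chose the set, those counts support nothing. In bulk RNA a smaller number of cells making a transcript cannot be told apart from less transcript per cell.

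**Figure D1:**
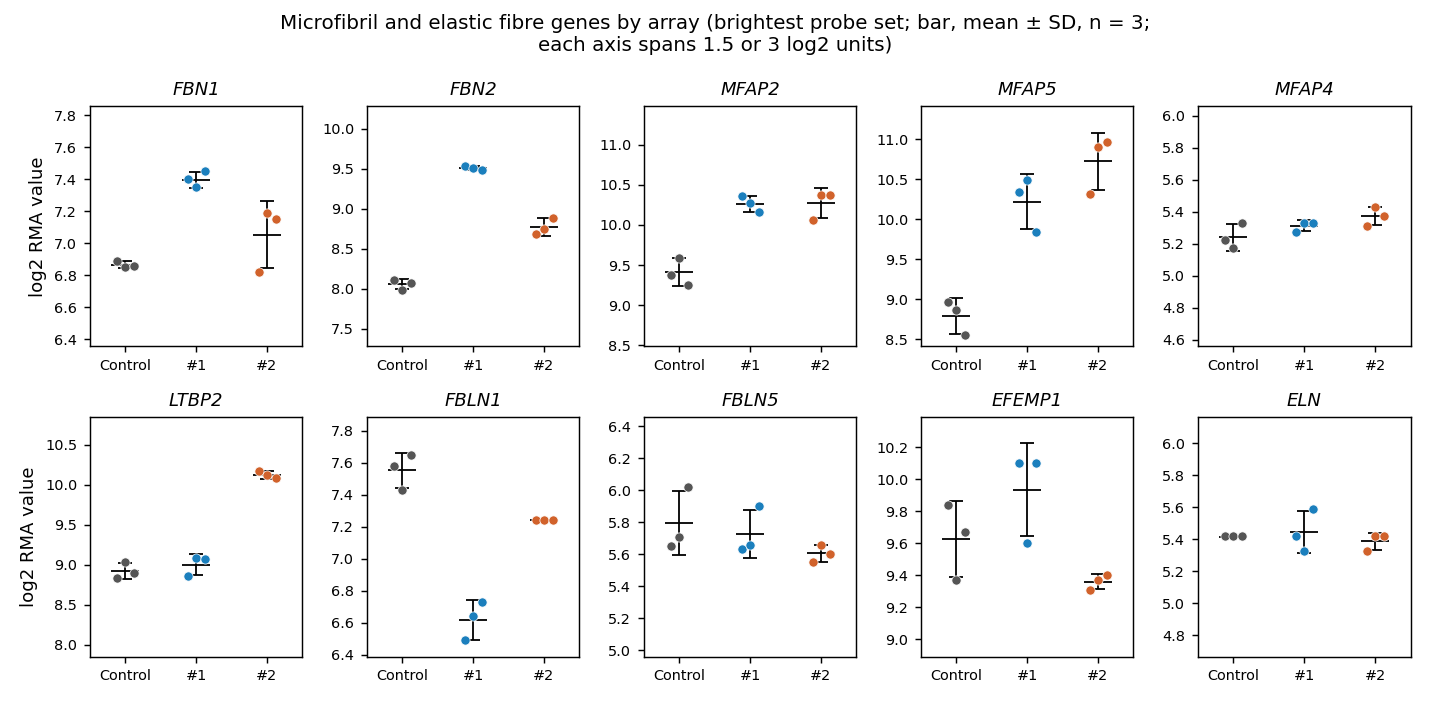
Log2 RMA value of the brightest probe set of each gene (vertical axes, each spanning 1.5 or 3 log2 units) in the 3 arrays of shControl (Control), shBAP1 #1 (#1) and shBAP1 #2 (#2); points are arrays and bars the mean ± SD (n = 3). MFAP2, MFAP5 and FBN2 lie above all control arrays with both hairpins, FBLN1 lies below them, LTBP2 is high with shBAP1 #2, and MFAP4, FBLN5 and ELN overlap in all groups.

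MFAP5 (microfibril-associated glycoprotein 2) binds fibrillin and, through an RGD motif, integrins. Its brightest probe set, 209758_s_at, stood at 8.97, 8.86 and 8.55 in shControl replicates 1 to 3. The shBAP1 #1 arrays gave 10.34, 10.49 and 9.84, and the shBAP1 #2 arrays 10.31, 10.90 and 10.96. Every shBAP1 array was thus above every control array, and the ranges of the hairpins overlapped. The difference from shControl was 1.43 ± 0.20 (SE, n = 3) with shBAP1 #1, a 2.69-fold higher level, and 1.93 ± 0.20 with shBAP1 #2, 3.81-fold higher. The hairpins differed by 0.50 (adjusted p = 0.10, unadjusted 95% interval 0.05 to 0.95), which missed the threshold. Without shBAP1 #2 replicate 1, the lowest array of its group, this difference was 0.71 (adjusted p = 0.018).

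The other MFAP5 probe sets separated the hairpins. 213764_s_at stood at 6.51, 6.15 and 6.16 in shControl, at 7.38, 7.44 and 7.01 with shBAP1 #1 and at 8.09, 9.08 and 9.27 with shBAP1 #2, so the 3 groups did not overlap. Its difference from shControl was 1.01 ± 0.26 and 2.54 ± 0.26. That of 213765_at was 1.18 ± 0.29 and 2.74 ± 0.29. MFAP5 was higher with shBAP1 #2 than with shBAP1 #1 by 1.54 ± 0.26 in 213764_s_at (adjusted p = 0.0012) and by 1.56 ± 0.29 in 213765_at (adjusted p = 0.0022). With 1 array left out at a time, the difference of shBAP1 #1 from shControl ran from 0.93 to 1.14 in the former and from 1.04 to 1.43 in the latter. In both probe sets this difference met the threshold with all arrays and missed it in 4 of these 9 fits.

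MFAP2 (microfibril-associated glycoprotein 1), the paralogue of MFAP5, is a constituent of most microfibrils. Its only probe set stood at 9.38, 9.59 and 9.25 in shControl, at 10.36, 10.27 and 10.16 with shBAP1 #1 and at 10.06, 10.38 and 10.38 with shBAP1 #2. All shBAP1 arrays exceeded all controls. The difference from shControl was nearly the same with either hairpin, 0.86 ± 0.11 with shBAP1 #1 and 0.87 ± 0.11 with shBAP1 #2, a 1.81-fold and a 1.82-fold higher level. The difference between the hairpins was 0.01 (adjusted p = 0.98), with a 95% interval of -0.24 to 0.26. MFAP4, a fibrinogen-domain protein that binds fibrillin and elastin and is not homologous to the other MFAP genes, read 5.17 to 5.33 in shControl, 5.27 to 5.33 with shBAP1 #1 and 5.31 to 5.43 with shBAP1 #2. These ranges overlapped, the mean over all arrays was below the median probe set, and the hairpins differed by 0.06 (adjusted p = 0.62).

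FBN2, the fibrillin most abundant in development, was higher with both hairpins in well separated groups. Its probe set 203184_at stood at 8.11, 7.99 and 8.07 in shControl, at 9.54, 9.51 and 9.49 with shBAP1 #1 and at 8.68, 8.75 and 8.89 with shBAP1 #2. The 3 groups were fully separated, with shBAP1 #1 highest and shBAP1 #2 between. The level was 2.74-fold higher than in shControl with shBAP1 #1 (1.46 ± 0.07 log2 units) and 1.64-fold higher with shBAP1 #2 (0.72 ± 0.07). FBN2 was lower with shBAP1 #2 than with shBAP1 #1 by 0.74 ± 0.07 (log2 difference -0.74, adjusted p = 3.9e-05), an order opposite to that of the 2 MFAP5 probe sets above. The remaining FBN2 probe sets were dim, with means below 4.1 in every group. 1554737_at differed from shControl by -0.14 and -0.10, and 215717_s_at by 0.50 and 0.06. The first of the 215717_s_at values met the threshold but did so in only 2 of 14 other settings.

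FBN1, the fibrillin of adult microfibrils, showed a smaller difference in the same order. 202766_s_at stood at 6.89, 6.85 and 6.86 in shControl, at 7.40, 7.35 and 7.45 with shBAP1 #1 and at 6.82, 7.19 and 7.15 with shBAP1 #2. The shBAP1 #1 arrays were above all others, while replicate 1 of shBAP1 #2 fell below the controls and its replicates 2 and 3 above them. The difference from shControl was 0.53 ± 0.10 with shBAP1 #1 and 0.19 ± 0.10 with shBAP1 #2, of which the second did not meet the threshold. It met it without shBAP1 #2 replicate 1, at 0.31. The hairpins differed by -0.34 ± 0.10 (adjusted p = 0.022). That call was lost without shBAP1 #1 replicate 1 (adjusted p = 0.061) or replicate 3 (0.069), with only the groups compared in the fit (0.056), and with the mean of the FBN1 probe sets (log2 difference -0.19, adjusted p = 0.11). 202765_s_at, at 5.60 to 6.30 over the 9 arrays, differed from shControl by 0.31 and 0.09, and 235318_at, at 3.14 to 3.43, by 0.02 and 0.03. None of these 4 values met the threshold.

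LTBP2 binds microfibrils and fibulin 5 and, unlike its relatives, does not bind latent TGF-beta. Its probe set 204682_at stood at 8.84, 9.04 and 8.90 in shControl, at 8.86, 9.09 and 9.07 with shBAP1 #1 and at 10.17, 10.12 and 10.08 with shBAP1 #2. Only the shBAP1 #2 arrays were apart, 1.20 ± 0.08 above shControl (2.29-fold), while shBAP1 #1 overlapped the controls at 0.08 ± 0.08. The hairpins differed by 1.12 ± 0.08 (adjusted p = 7.8e-06). The second LTBP2 probe set, 223690_at, gave another picture, at 6.45, 6.27 and 6.41 in shControl, 7.19, 7.30 and 7.26 with shBAP1 #1 and 7.59, 7.58 and 7.47 with shBAP1 #2. Here shBAP1 #1 lay 0.87 ± 0.07 above shControl and shBAP1 #2 1.17 ± 0.07, and the hairpins differed by 0.29 ± 0.07 (adjusted p = 0.012), a call that was lost without shBAP1 #1 replicate 1 (0.26, adjusted p = 0.053). The probe sets of LTBP2 thus gave like values for shBAP1 #2 and unlike values for shBAP1 #1, and their mean was 0.47 above shControl with shBAP1 #1, which met the threshold.

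**Figure D2:**
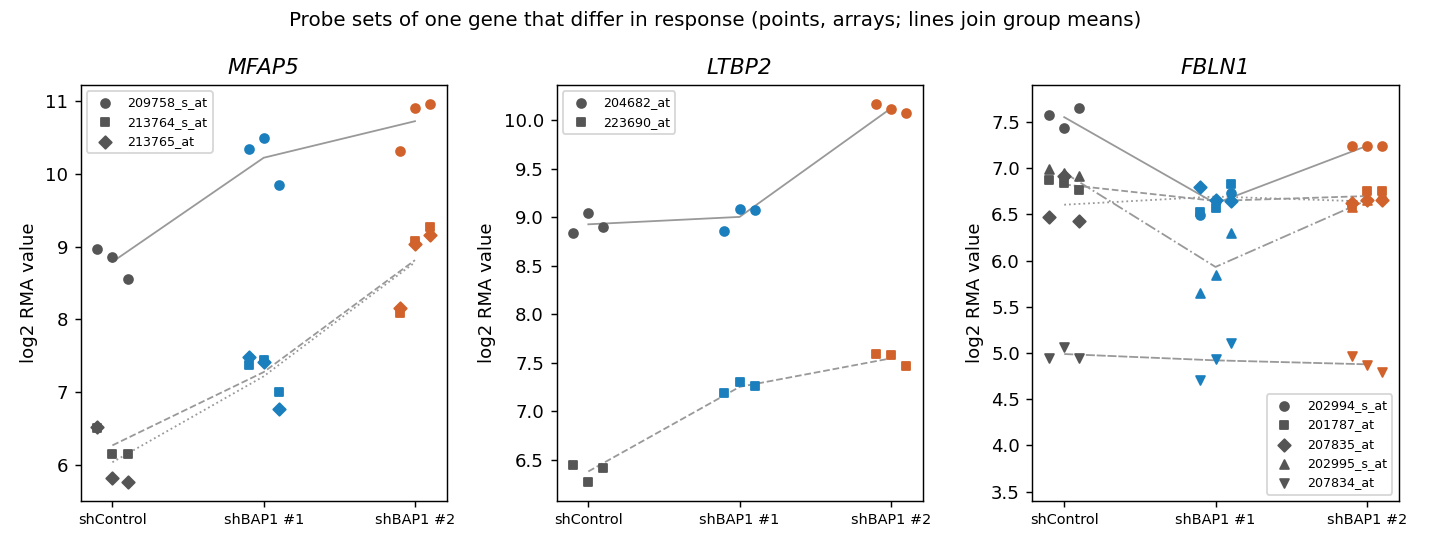
Log2 RMA values (vertical axis) of every probe set of MFAP5, LTBP2 and FBLN1 in the 3 arrays of each group (horizontal axis); symbols mark probe sets and lines join group means. The lower MFAP5 probe sets rise further with shBAP1 #2 than the upper one, the LTBP2 probe sets part at shBAP1 #1, and 2 of 5 FBLN1 probe sets dip with shBAP1 #1.

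FBLN1 encodes fibulin 1, a protein of elastic fibres and basement membranes that binds tropoelastin and fibronectin. Its brightest probe set, 202994_s_at, stood at 7.58, 7.43 and 7.65 in shControl, at 6.49, 6.64 and 6.73 with shBAP1 #1 and at 7.24 in each shBAP1 #2 array. All 3 groups were separate, with shBAP1 #1 lowest. The shBAP1 #2 values were identical (SD 0), which lowers the spread on which the SE and adjusted p of this probe set rest. The log2 difference from shControl was -0.93 ± 0.08 with shBAP1 #1, a 1.91-fold lower level, and -0.31 ± 0.08 with shBAP1 #2. The second value met the threshold but lost it in 4 of 9 fits that left out 1 array (shBAP1 #2 replicate 2 or 3, shControl replicate 1 or 3), at -0.37 to -0.26 over the 9. FBLN1 was higher with shBAP1 #2 than with shBAP1 #1 by 0.62 ± 0.08 (adjusted p = 0.00026).

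Fibulin 1 transcripts are spliced to different 3' ends, of which the C and D forms are the main ones. The array annotation pairs 4 of the 5 FBLN1 probe sets each with a different RefSeq transcript. The annotation does not name the forms; by RefSeq's own naming, taken from general knowledge, the transcript of 202995_s_at is the D form and that of 201787_at the C form. Whether each probe set reads its form alone was not tested. The D-form probe set stood at 6.99, 6.95 and 6.91 in shControl, 5.65, 5.84 and 6.30 with shBAP1 #1 and 6.58, 6.65 and 6.72 with shBAP1 #2. It differed from shControl by -1.02 ± 0.14 and -0.30 ± 0.14, of which the second did not meet the threshold. The hairpins differed in it by 0.72 ± 0.14 (adjusted p = 0.0024). The C-form probe set read 6.76 to 6.87, 6.53 to 6.83 and 6.60 to 6.75 in the same order, so the shBAP1 #2 arrays lay below all controls. It differed from shControl by -0.18 ± 0.09 and -0.13 ± 0.09, neither of which met the threshold. The first met it in 1 of 15 other settings. The hairpins differed in this probe set by 0.05 (adjusted p = 0.75). 207834_at and 207835_at differed from shControl by at most 0.11 in size and overlapped in all groups. Across the 9 arrays 202994_s_at and 202995_s_at ran together (r = 0.961). The C-form probe set 201787_at correlated with 202994_s_at at 0.643 and with the D-form probe set 202995_s_at at 0.788. These arrays share the 3 groups, so r is a description.

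EFEMP1 encodes fibulin 3, which is abundant in fascia and eye tissue. 201842_s_at stood at 9.84, 9.37 and 9.67 in shControl, at 10.10, 9.60 and 10.10 with shBAP1 #1 and at 9.31, 9.37 and 9.40 with shBAP1 #2. Controls overlapped either hairpin, but the hairpins did not overlap each other. The log2 difference from shControl was 0.31 ± 0.15 with shBAP1 #1 and -0.27 ± 0.15 with shBAP1 #2, neither past the threshold. Without shBAP1 #1 replicate 2 the first was 0.48 and met it. The difference between the hairpins was -0.58 ± 0.15 (adjusted p = 0.014), and missed the threshold without shBAP1 #1 replicate 1 (-0.49, adjusted p = 0.060) or replicate 3 (-0.49, adjusted p = 0.052), and with the mean of the EFEMP1 probe sets (-0.26, adjusted p = 0.21). 201843_s_at and 228421_s_at gave 0.10 and -0.30 for the same difference (adjusted p = 0.84 and 0.069).

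FBLN5, whose product links tropoelastin to microfibrils and to integrins, and ELN itself did not meet the threshold in any comparison. FBLN5 read 5.65, 5.71 and 6.02 in shControl, 5.63, 5.66 and 5.90 with shBAP1 #1 and 5.55, 5.66 and 5.60 with shBAP1 #2. The hairpins differed by -0.12 (95% interval -0.36 to 0.11). Both ELN probe sets lay slightly below the median probe set, with a total range of 5.33 to 5.59 for 216269_s_at and 5.15 to 5.46 for 212670_at. In 216269_s_at, 6 of the 9 arrays gave the same value to 2 decimals (5.42). The hairpins differed in ELN by -0.06 (95% interval -0.23 to 0.11) and -0.05 (-0.24 to 0.15).

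**Figure D3:**
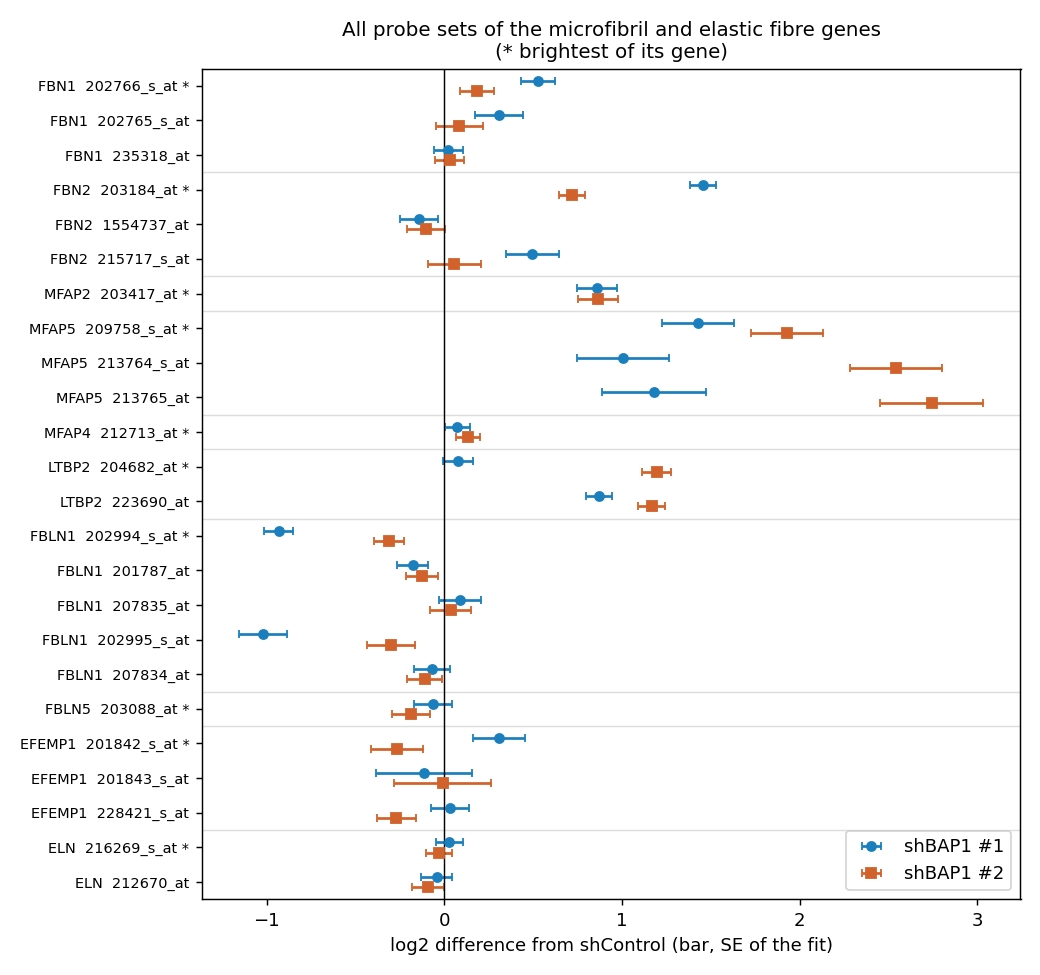
Log2 difference from shControl (horizontal axis) of all 24 probe sets with shBAP1 #1 (circles) and shBAP1 #2 (squares); bars are the SE of the fit and an asterisk marks the brightest probe set of a gene. The differences run from -1.02 (FBLN1) to 2.74 (MFAP5), and MFAP5, FBN2, LTBP2 and FBLN1 show the hairpins apart.

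Between the hairpins, 5 of the 10 genes differed by the test, against 32.6% of all 19775 genes. LTBP2 and FBLN1 were higher with shBAP1 #2, and FBN2, FBN1 and EFEMP1 lower (16.1% and 16.5% of all genes in those directions). Without shBAP1 #1 replicate 1, or without its replicate 3, 3 of the 10 differed: LTBP2, FBLN1 and FBN2. MFAP5 joined the 5 without shBAP1 #2 replicate 1. With all probe sets of a gene averaged, 4 of the 10 differed, 3 higher and 1 lower with shBAP1 #2. In that setting 33.6% of all genes differed, and MFAP5 was among those higher (1.20, adjusted p = 0.0031). Over all 24 probe sets, 9 differed between the hairpins, against 25.5% of 54613. The median difference of the 10 genes was -0.02, against 0.01 over all genes.

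Promoter sequences are shown for the genes that stood apart with both hairpins or most clearly with 1, to set the letters beside their levels. RefSeq start sites in GRCh38.p14 were matched for 6 of the 10 genes. The genes MFAP5, MFAP4, ELN and EFEMP1 had no entry. Each line gives the 250 bases before a start, 5′ to 3′ on the gene's strand, with capitals for matches to 5 searched motifs.
MFAP2, outer start, chr1:16981584-16981833, minus strand: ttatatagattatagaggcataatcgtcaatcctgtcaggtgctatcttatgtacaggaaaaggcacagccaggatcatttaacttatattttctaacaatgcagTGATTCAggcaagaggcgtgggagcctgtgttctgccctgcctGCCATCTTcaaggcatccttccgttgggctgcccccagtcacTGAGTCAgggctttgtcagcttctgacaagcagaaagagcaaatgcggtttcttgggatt
MFAP2, inner start, chr1:16980621-16980870, minus strand: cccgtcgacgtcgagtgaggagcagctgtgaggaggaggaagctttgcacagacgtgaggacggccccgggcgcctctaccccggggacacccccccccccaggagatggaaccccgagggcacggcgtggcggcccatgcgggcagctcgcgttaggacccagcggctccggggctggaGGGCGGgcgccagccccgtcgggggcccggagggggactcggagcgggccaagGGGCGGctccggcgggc
FBN2, chr5:128538246-128538495, minus strand: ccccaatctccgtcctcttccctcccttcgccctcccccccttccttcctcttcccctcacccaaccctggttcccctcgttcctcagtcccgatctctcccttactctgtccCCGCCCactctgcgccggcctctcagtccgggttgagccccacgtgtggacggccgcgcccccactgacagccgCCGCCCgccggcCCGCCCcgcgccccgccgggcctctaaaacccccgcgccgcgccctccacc
LTBP2, chr14:74612238-74612487, minus strand: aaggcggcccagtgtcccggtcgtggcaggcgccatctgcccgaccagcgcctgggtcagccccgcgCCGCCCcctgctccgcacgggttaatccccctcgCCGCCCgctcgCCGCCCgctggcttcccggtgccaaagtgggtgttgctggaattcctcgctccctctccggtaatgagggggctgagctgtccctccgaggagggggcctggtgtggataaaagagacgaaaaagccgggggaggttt
FBLN1, chr22:45502633-45502882, plus strand: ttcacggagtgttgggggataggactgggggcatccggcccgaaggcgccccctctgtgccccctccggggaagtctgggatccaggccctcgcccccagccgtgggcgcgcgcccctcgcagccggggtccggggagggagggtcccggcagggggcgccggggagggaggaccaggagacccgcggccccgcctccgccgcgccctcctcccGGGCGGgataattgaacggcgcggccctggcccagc
The motifs, read on both strands, were AP-1 (TGANTCA), the TATA box (TATAAA), Sp1 (GGGCGG), YY1 (GCCATNTT) and TEAD (CATTCC). The outer MFAP2 start, with 46.8% G and C, holds 2 AP-1 matches, which begin 145 and 60 bases before the start, and a YY1 match that begins 102 bases before it. Of 35116 such windows, 6.57% hold an AP-1 match, 0.402% hold 2 or more and 3.86% hold a YY1 match. The inner MFAP2 start, with 76.4% G and C, holds 2 Sp1 matches, and FBN2 and LTBP2 hold 3 each and FBLN1 1. An Sp1 match occurs in 42.6% of windows, and 24.3% hold 2 or more. The TATA box and TEAD motifs have no match in these 5 windows, which says only that those letters are not there. Among the windows of the 6 genes not shown, FBN1 holds a TEAD match and FBLN5 a TATA box match. Of all windows, 11.9% hold a TEAD match and 10.7% a TATA box match. Which MFAP2 start U2OS cells use was not measured, nor was whether any match is a bound site.

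Among the other genes of elastic fibres and their assembly, 31 of 32 listed genes (all but GLB1) had a probe set naming them alone. With shBAP1 #1, 9 were higher and 1 lower than shControl, and with shBAP1 #2, 9 were higher and 4 lower. The list's median difference was 0.05 with either hairpin, and the shares called, 10 and 13 of 31, stand beside the 23.4% and 31.2% given above. Higher with both were the cross-linking enzymes LOX (1.78 and 1.67) and LOXL1 (0.51 and 1.97) and the fibrillin-binding latent TGF-beta carrier LTBP1 (0.98 and 0.57). So were EMILIN2, an elastin-microfibril interface glycoprotein (0.77 and 1.23), FN1, fibronectin, on which fibrillin assembles (1.81 and 0.25), the fibrillin-processing convertase FURIN (0.29 and 0.39) and CTSA of the elastin receptor complex (0.47 and 0.80). These 7 of 31 stand beside 5.56% of all genes. The list was drawn up with earlier results of these data known, so its shares against shControl support nothing. Another 2 of the 31 went opposite ways, as did 2.95% of all genes. The latter 2 were ADAMTS6, a protease that acts on microfibrils (1.58 and -1.65), and the lysyl oxidase LOXL2 (-0.34 and 0.69), named after their values were seen. ADAMTS6 ran from 8.64 to 9.72 within shControl and from 6.84 to 8.34 within shBAP1 #2. LOXL2 was the 1 gene lower with shBAP1 #1. It missed the threshold there without shControl replicate 1, among other settings, and no gene was lower with probe sets averaged.

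Between the hairpins 10 of the 31 differed, 5 in each direction, a share near the 32.6% of all genes. The largest were ADAMTS6 at -3.23, FN1 at -1.56, LOXL1 at 1.46, NEU1, the sialidase of the elastin receptor, at -1.06 and LOXL2 at 1.02, also named after their values were seen. FN1 and FBN2 were thus higher with shBAP1 #1, and LOXL1 and LTBP2 with shBAP1 #2. With all probe sets of a gene averaged, 16 of the 31 differed, 7 higher and 9 lower with shBAP1 #2, against 33.6% of all genes averaged likewise.

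**Figure D4:**
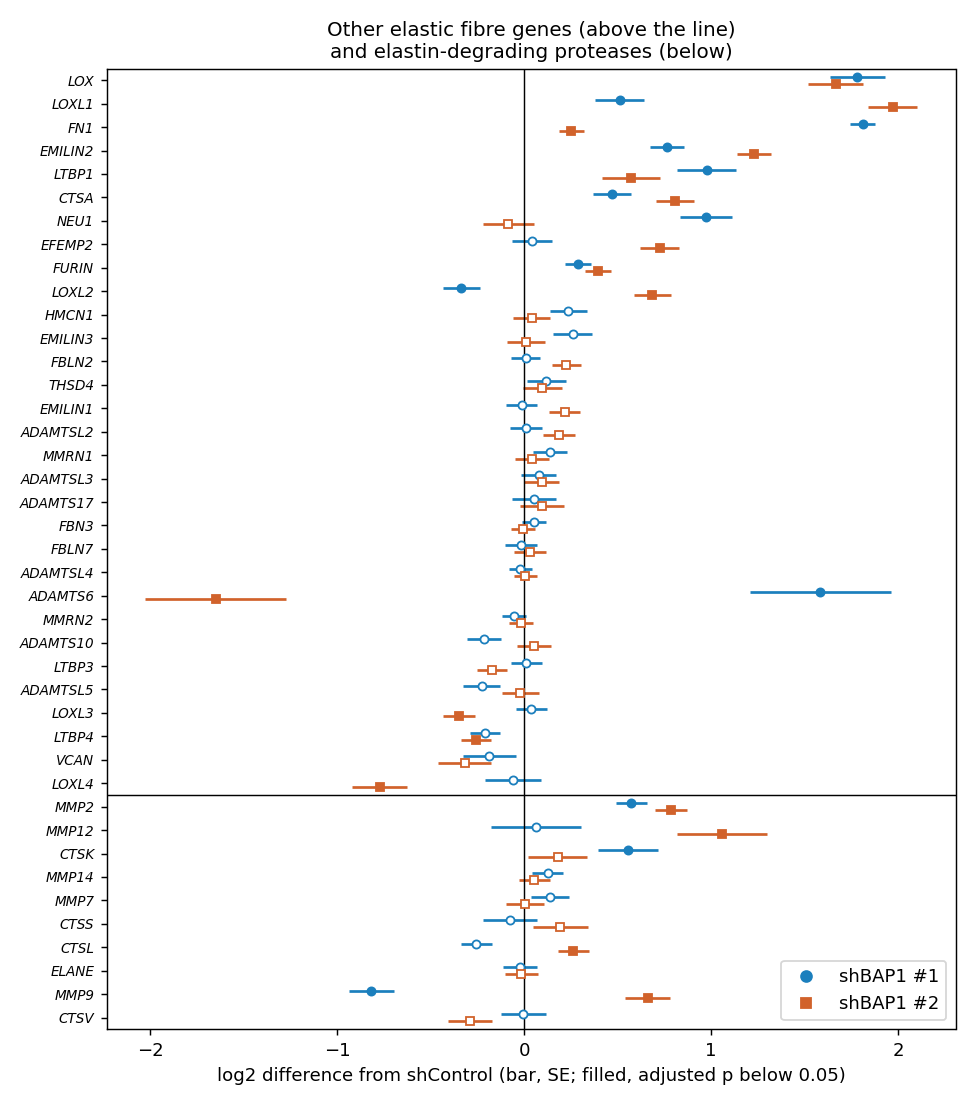
Log2 difference from shControl (horizontal axis, bars SE) of 31 other elastic fibre genes above the line and 10 elastin-degrading proteases below it, with shBAP1 #1 (circles) and shBAP1 #2 (squares); filled symbols met the threshold. LOX lies near 1.7 with both hairpins, ADAMTS6 lies at 1.58 and -1.65, and most genes near 0 have open symbols.

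The genes whose levels ran most like MFAP5 over the 9 arrays were NDUFB2 (r = 0.994), TTC19 (0.986), NIPSNAP3A (0.985), ATP6AP1 (0.985) and CXADR (0.984), out of 12761 genes no dimmer than the median probe set. Pearson's r here mostly follows the 3 groups the arrays share and is a description. Their differences from shControl were smaller than those of MFAP5, from 0.26 and 0.35 for NDUFB2 to 0.71 and 1.04 for NIPSNAP3A.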

How the data were processed

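The authors deposited log2 expression values per probe set after RMA, per the submitters' processing notes. No version is given there, and the genome build is not given in the sources used here. RMA forces 1 intensity distribution on every array and compresses dim signals, so a shift of all transcripts is removed. Array medians lay between 5.40 and 5.44, no arrays were identical, and for arrays their number limits the precision.

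The 62 array control probe sets were left out and limma 3.58.1 (lmFit, eBayes; R 4.3.3) was fitted to the other 54613 over 9 arrays in 3 groups without covariates, with 6 residual and 4.37 prior degrees of freedom, and was tested on simulated data. SE and 95% intervals come from that fit. The array annotation gave 1 symbol to 41091 probe sets, several to 1801 and none to 11721. The identifiers of all 24 probe sets described matched the RefSeq gene table. Of these, 11 carry the suffix _s_at, for probes shared between transcripts.

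The 10 genes and the lists were chosen with earlier results of these data known. All 10 are named, as are the genes of the wider lists called the same way with both hairpins and the 5 genes most correlated with MFAP5. Same-numbered arrays of shControl and shBAP1 #1 deviated together (r = 0.13 to 0.30), and those of the other groups did not all do so (-0.17 to 0.11). Alternatives covered other normalizations, gene summaries, a filter on dim probe sets, a variance trend, a replicate block and leaving out each array. Python 3.11.15 with matplotlib 3.10.9 made the plots.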

Additional observations from a re-analysis of the deposited data

Results flagged for a closer look

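These probe sets differed between shBAP1 #2 and shBAP1 #1 by limma's test of that difference (adjusted p below 0.05, n = 3 arrays a group). Higher with shBAP1 #2 were MFAP5 213764_s_at (1.54) and 213765_at (1.56), LTBP2 204682_at (1.12) and 223690_at (0.29), and FBLN1 202994_s_at (0.62) and 202995_s_at (0.72). Lower with shBAP1 #2 were FBN2 203184_at (-0.74), FBN1 202766_s_at (-0.34) and EFEMP1 201842_s_at (-0.58). Values are log2 differences, and no cause was tested.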

How the results depend on the processing

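Calls against shControl are descriptions here too. Of 9 probe sets that differed between the hairpins, 6 kept their direction and their side of the threshold in every alternative run. The exceptions were FBN1 202766_s_at, EFEMP1 201842_s_at and LTBP2 223690_at, which kept their direction. With the mean of a gene's probe sets, 3 of the 10 genes met the threshold for shBAP1 #2 against shControl in place of 5, with FBN2 at 0.22 and FBLN1 at -0.16, and 16 in place of 10 of the wider elastic fibre list differed between the hairpins. The cause was not tested. Leaving out 1 array gave 5 to 6 of the 10 genes for shBAP1 #1 against shControl, 4 to 6 for shBAP1 #2 and 3 to 6 between the hairpins. For the wider list the ranges were 7 to 10, 10 to 14 and 9 to 12. With the replicate number as a block, 5 of the 10 genes met the threshold in each comparison and 10, 13 and 10 of the wider list. With the block FBN2 215717_s_at, at 0.50 with shBAP1 #1, no longer met it, as it did not with cyclic loess (0.49) or median centring (0.48). An array's deviations correlated best with its own number in 9 of 18 checks. Of the 24 probe sets, 8 have means below the median of all, where background limits what can be seen, and fits over 1 value per gene apply to the brightest probe set alone.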

Other observations

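Of 10 listed proteases that can degrade elastin, 2 were higher and 1 lower than in shControl with shBAP1 #1, and 4 were higher with shBAP1 #2, beside 23.4% and 31.2% of all genes called by limma. MMP2, the gelatinase that also cleaves fibrillin, was higher than in shControl with both (0.57 and 0.79). MMP9, the other gelatinase, was lower with shBAP1 #1 (-0.82) and higher with shBAP1 #2 (0.66), and differed between the hairpins by 1.48. The macrophage elastase gene MMP12 differed from shControl by 0.06 and 1.06. MMP9 and MMP12 were named after their values were seen. Neutrophil elastase (ELANE) was dimmer than the median probe set, at a difference of -0.02 with either hairpin.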
